A study of Apis mellifera with 12 samples.

Results

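In the brains of honey bee queens, 11 genes were graded over the 3 groups of the study without any overlap between queens. For 8 of them, every mated queen lay above every CO2-treated queen and every CO2-treated queen above every virgin queen. For the other 3, the order was reversed, with every mated queen lowest and every virgin queen highest. The genes were found from raw read counts scaled by edgeR's TMM method and expressed as CPM (the count scaled to 1e+06 counts of the corrected library size). A gene was considered if its counts over the 12 queens summed to at least 10 and its mean was at least 1 CPM, which left 10893 of the 15314 genes in the table. The order of the queens itself chose these genes, so their values, folds and calls are given as a description and no test is drawn from them.

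The study sequenced the brains of 12 sister queens from 1 source colony of Australian commercial stock, mainly of Italian (Apis mellifera ligustica) descent, with 1 library per queen and 4 queens per group. All queens were 8 days old at sampling and entered their treatment on day 6. Each lived in a small colony of its own whose entrance held it back from flying. Mated queens were let out and returned from a flight with a mating plug. CO2-treated queens were caged and put under carbon dioxide narcosis for 10 min on day 6 and again on day 7, and never flew. Virgin queens were caged beside them and went back to their colonies without narcosis. By the study's dissections all mated queens had developing eggs and semen, and no CO2-treated or virgin queen had either. The groups thus stand for queens of 1 age and 1 family.

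A honey bee queen mates early in adult life and afterwards stays in the nest to lay eggs, a change that involves her flight behaviour, her response to light, her pheromones and her ovaries. Beekeepers have long used carbon dioxide narcosis to make unmated or inseminated queens begin to lay, so that a CO2-treated queen shares some of the physiology of mating without sperm, seminal fluid or flight. A graded gene is a gene whose level after narcosis without mating lay between the levels of mated and virgin queens.

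The libraries held 12434733 to 20677514 reads counted on genes. A single gene with no name in the sources used here, GB49544, took 13.7 to 42.7% of all counts in mated queens, 1.12 to 5.02% in CO2-treated queens and 0.153 to 2.89% in virgin queens. TMM factors, which correct for such a share, ranged from 0.556 to 1.03 in mated queens, from 1.09 to 1.29 in CO2-treated queens and from 1.06 to 1.37 in virgin queens. Without these factors the median of all genes' log2 fold changes, mated over virgin, moved to -0.79, against -0.08 with them, and the order of the graded genes depended on this scaling as given below. RNA of a whole brain was counted, so fewer cells of a type and less RNA per cell cannot be told apart.

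The 8 genes high in mated queens were 0.0734% of the genes considered, and the 3 genes low in mated queens 0.0275%. The remaining 4 possible orders of the groups were held by 1, 1, 1 and 0 genes. Names were available for 5 of the 11 genes, through the Drosophila ortholog that the study assigned: Nep5, Doc1, CG10710 and CG11281 among the genes high in mated queens and CG15629 among the genes low in mated queens. The other 6 are given by their identifier alone. The median of the mean CPM was 9.28 over the 11 genes, against 29.8 over all genes considered, on a scale that is not corrected for transcript length.

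**Figure D1:**
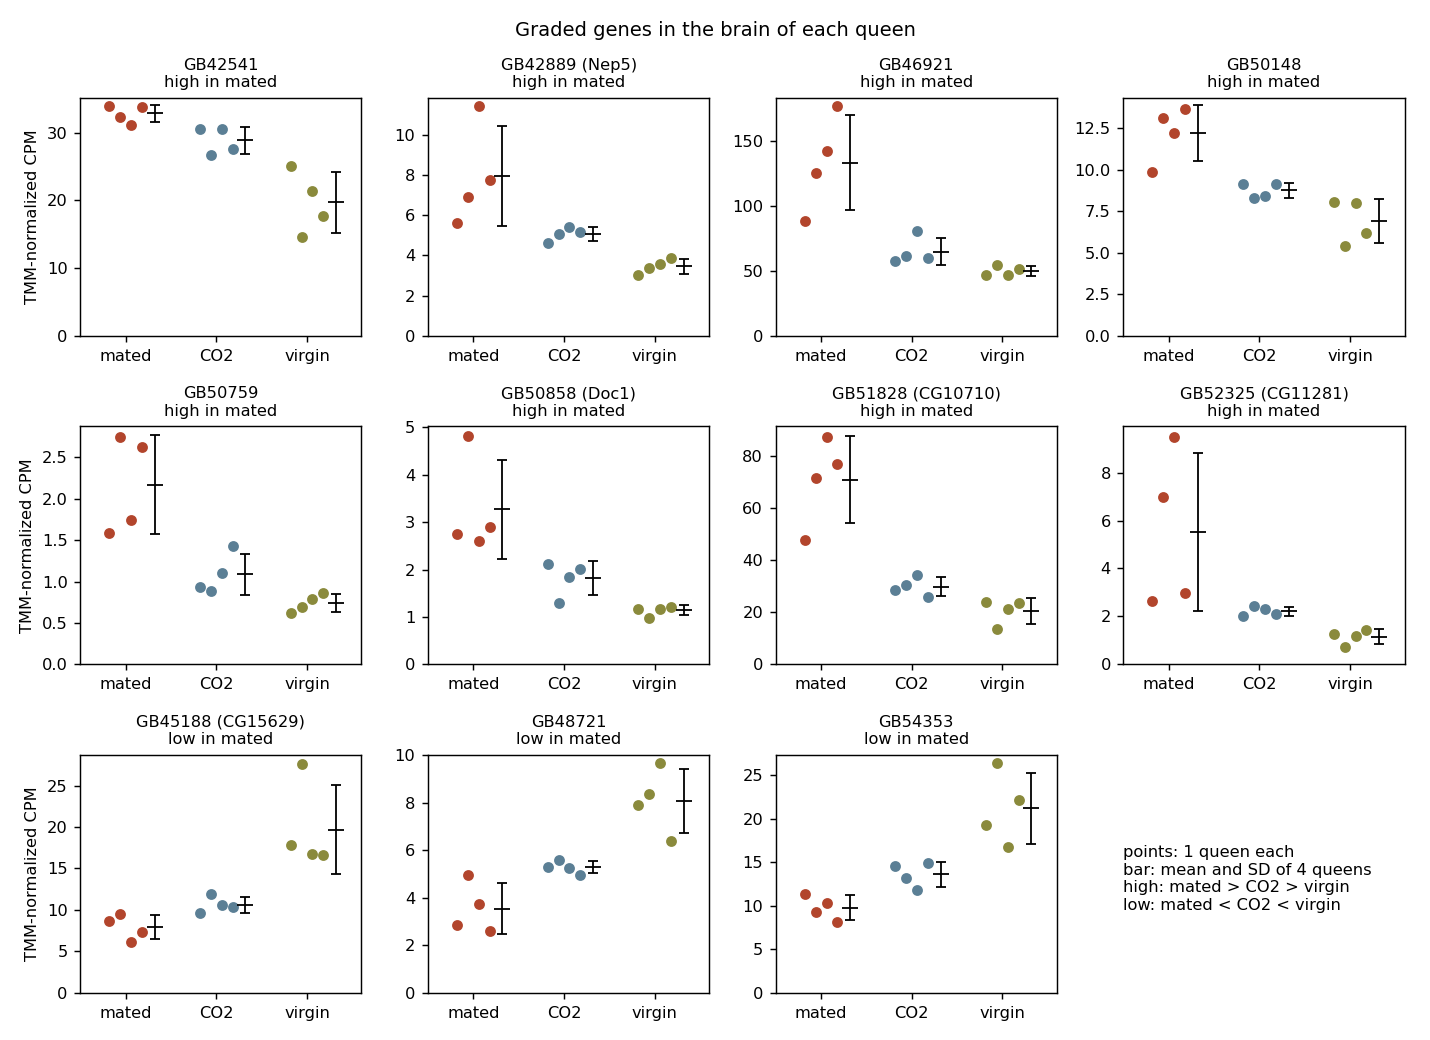
Expression of the 11 graded genes in each queen (TMM-normalized CPM, linear axis from 0), with mated, CO2-treated and virgin queens from left to right. Points are single queens and bars are the mean and SD of 4 queens. In no panel do the 3 groups overlap, though mated queen 4 and CO2-treated queen 7 nearly coincide for GB48721. Relative to its mean the spread of the mated queens was widest for CG11281 (2.64 to 9.49 CPM, a coefficient of variation of 59.7%).

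Among the named genes, the ortholog of Nep5 (GB42889, RefSeq LOC724616) encodes a neprilysin, a family of membrane-bound metallopeptidases known for cutting small peptides such as neuropeptides outside the cell. It had 5.62, 6.92, 11.4 and 7.77 CPM in mated queens 1, 4, 6 and 7, against 4.63, 5.04, 5.43 and 5.15 CPM in CO2-treated queens 1, 2, 5 and 7 and 3.02, 3.35, 3.59 and 3.87 CPM in virgin queens 1, 2, 4 and 6. Mated queen 6 stood highest, while the CO2-treated queens lay close together and mated queen 1 was only just above them. The fitted log2 difference was 1.19 ± 0.25 (SE) for mated over virgin queens and 0.55 ± 0.25 for CO2-treated over virgin queens.

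The study named orthologs of 2 further neprilysins, which were not graded. Nep2 (GB53300) had 11.8, 43.3, 25.6 and 34.4 CPM in mated queens, against 8.06, 10.5, 22.7 and 10.9 CPM in CO2-treated queens and 7.94, 5.43, 9.88 and 12.7 CPM in virgin queens. Here the mated and the CO2-treated queens overlapped, and so did the CO2-treated and the virgin queens. Nep4 (GB43805) averaged 242 ± 134 CPM in mated queens, 199 ± 94.5 CPM in CO2-treated queens and 108 ± 78.5 CPM in virgin queens (SD, n = 4 each), with overlap between all groups.

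Doc1 (GB50858, RefSeq LOC410885) is named for Dorsocross1 of Drosophila, a T-box transcription factor known there for its role in dorsal embryonic tissue and the heart. Few reads fell on it, with 2.75, 4.83, 2.61 and 2.89 CPM in mated queens 1, 4, 6 and 7, against 2.13, 1.30, 1.85 and 2.02 CPM in CO2-treated queens 1, 2, 5 and 7 and 1.18, 0.987, 1.18 and 1.22 CPM in virgin queens 1, 2, 4 and 6. Mated queen 4 stood above the other mated queens, CO2-treated queen 2 lay next to the virgin queens, and the virgin queens hardly differed among themselves. These levels rest on 17 to 67 reads per library. The group means were 3.27 ± 1.05 CPM in mated queens, 1.82 ± 0.37 CPM in CO2-treated queens and 1.14 ± 0.10 CPM in virgin queens (SD, n = 4 each), which is 2.87-fold higher in mated than in virgin queens.

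The gene with the largest fold among the 11 was the ortholog of CG11281 (GB52325, RefSeq LOC724561), at 4.77-fold higher mean CPM in mated than in virgin queens. It had 2.64, 6.99, 9.49 and 2.98 CPM in mated queens 1, 4, 6 and 7, against 2.0, 2.44, 2.31 and 2.11 CPM in CO2-treated queens 1, 2, 5 and 7 and 1.28, 0.74, 1.18 and 1.43 CPM in virgin queens 1, 2, 4 and 6. The mated queens split into queens 4 and 6, far above the CO2-treated queens, and queens 1 and 7, just above them. The CO2-treated queens averaged 1.91-fold more than the virgin queens, the largest such fold of the 8 genes high in mated queens. The coefficient of variation of this gene was 8.99% in CO2-treated and 25.7% in virgin queens. Between 15 and 109 reads per library were counted.

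In the RefSeq annotation of assembly Amel_HAv3.1, this gene lies between CSP3 and CSP4, which encode chemosensory proteins, small secreted proteins known for binding hydrophobic molecules. CSP3 could be matched to a row of the table, GB52324, whose values were looked at because of that position and after those of its neighbour were known. It had 3376, 6528, 6819 and 3583 CPM in mated queens, against 741, 1371, 1275 and 699.6 CPM in CO2-treated queens and 879, 868, 1020 and 2170 CPM in virgin queens. Mated queens stood above all others, while the CO2-treated and the virgin queens overlapped. In edgeR's quasi-likelihood test with Benjamini-Hochberg adjustment over all genes, the log2 fold change of CSP3 was 2.04 ± 0.42 for mated over virgin queens (adjusted p = 0.035) and -0.27 ± 0.41 for CO2-treated over virgin queens (adjusted p = 0.95). With 1 queen left out the adjusted p of the quasi-likelihood test for mated over virgin queens was 0.015 to 0.13, and it was under 0.05 only without mated queen 1, CO2-treated queen 1 or virgin queen 6, while the log2 fold change was 1.80 to 2.46. The order of CG11281 over the 3 groups was not shared by CSP3. The gene with the next identifier, GB52326, has the same Drosophila ortholog as CSP3 in the study, PebIII, and its place on the assembly was not found. It had 0.703, 0.36, 1.39 and 0.632 CPM in mated queens, against 0.188, 0.156, 0.52 and 0.224 CPM in CO2-treated queens and 0.0, 0.0493, 0.0562 and 0.143 CPM in virgin queens. All CO2-treated queens lay above all virgin queens, and the graded order was broken only by mated queen 4 lying below CO2-treated queen 5. These values rest on 5 to 16 reads in mated, 3 to 9 in CO2-treated and 0 to 2 in virgin queens. The mean of 0.369 CPM was under the minimum for a graded gene. CSP3 and GB52326 were among 40 genes examined because their identifiers are close to those of graded genes. For mated over virgin queens 5 of the 40 were called, against 1.2% of all genes. The others were GB42540, GB46922 and GB50149, next in number to GB42541, GB46921 and GB50148. A called neighbour was thus not particular to CG11281.

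The last named gene high in mated queens, the ortholog of CG10710 (GB51828), had 47.8, 71.6, 87.4 and 77.0 CPM in mated queens 1, 4, 6 and 7, against 28.7, 30.5, 34.5 and 25.9 CPM in CO2-treated queens 1, 2, 5 and 7 and 23.8, 13.5, 21.2 and 23.7 CPM in virgin queens 1, 2, 4 and 6. All mated queens were well clear of the CO2-treated queens, with mated queen 1 the nearest, while CO2-treated queen 7 and virgin queen 1 were close. This was the widest separation of mated from CO2-treated queens among the 11 genes, with a log2 gap of 0.47 between the nearest queens. The mean was 3.45-fold higher in mated than in virgin queens and 1.46-fold higher in CO2-treated queens than in the virgin ones.

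The remaining 4 genes high in mated queens had no name. GB46921 had the highest mean CPM of the graded genes, with 88.6, 125, 142 and 176 CPM in mated queens 1, 4, 6 and 7, against 57.6, 61.6, 80.3 and 59.7 CPM in CO2-treated queens 1, 2, 5 and 7 and 47.1, 54.4, 46.5 and 51.4 CPM in virgin queens 1, 2, 4 and 6. The virgin queens were tightly grouped, CO2-treated queen 5 stood apart from the others of its group towards the mated queens, and mated queen 1 was again the lowest mated queen. Mated queens averaged 2.67-fold more than virgin queens, and CO2-treated queens 1.30-fold more.

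GB42541 had the opposite shape. Its values were 34.0, 32.4, 31.2 and 33.8 CPM in mated queens 1, 4, 6 and 7, against 30.6, 26.7, 30.5 and 27.6 CPM in CO2-treated queens 1, 2, 5 and 7 and 25.0, 14.6, 21.4 and 17.7 CPM in virgin queens 1, 2, 4 and 6. Here mated queens hardly varied and were only just above the CO2-treated queens, while virgin queens spread widely below. The fold was 1.67 for mated over virgin queens, the smallest of the 8, and 1.14 for mated over CO2-treated queens. Its order was lost when mated queen 1, 6 or 7 was left out and the TMM factors were computed again, which happened to no other graded gene.

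GB50148 had 9.84, 13.1, 12.2 and 13.6 CPM in mated queens 1, 4, 6 and 7, against 9.13, 8.26, 8.43 and 9.14 CPM in CO2-treated queens 1, 2, 5 and 7 and 8.04, 5.43, 7.97 and 6.17 CPM in virgin queens 1, 2, 4 and 6. Virgin queens 1 and 4 nearly reached the CO2-treated queens, and the order was lost with DESeq2's size factors and when GB49544 was removed before scaling. GB50759 had the lowest mean CPM, with 1.58, 2.74, 1.74 and 2.62 CPM in mated queens, against 0.938, 0.884, 1.10 and 1.43 CPM in CO2-treated queens and 0.615, 0.691, 0.786 and 0.861 CPM in virgin queens. It was read only 12 to 38 times per library, and CO2-treated queen 2 stood beside virgin queen 6.

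Of the 3 genes low in mated queens, the ortholog of CG15629 (GB45188) differed most. It had 8.61, 9.52, 6.18 and 7.32 CPM in mated queens 1, 4, 6 and 7, against 9.63, 11.95, 10.6 and 10.3 CPM in CO2-treated queens 1, 2, 5 and 7 and 17.8, 27.6, 16.7 and 16.6 CPM in virgin queens 1, 2, 4 and 6. Virgin queens were well clear of the CO2-treated queens, with virgin queen 2 far above the rest, whereas mated queen 4 nearly touched CO2-treated queen 1. Virgin queens had 2.49 times the mean of mated queens, and CO2-treated queens had 0.54 times the mean of virgin queens.

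GB54353 had 11.4, 9.30, 10.4 and 8.13 CPM in mated queens 1, 4, 6 and 7, against 14.6, 13.2, 11.8 and 14.9 CPM in CO2-treated queens 1, 2, 5 and 7 and 19.3, 26.4, 16.8 and 22.2 CPM in virgin queens 1, 2, 4 and 6. The groups followed each other with small gaps on both sides. GB48721 had 2.87, 4.97, 3.74 and 2.62 CPM in mated queens, against 5.31, 5.61, 5.25 and 4.97 CPM in CO2-treated queens and 7.89, 8.39, 9.66 and 6.39 CPM in virgin queens. Its place among the graded genes hung on mated queen 4 and CO2-treated queen 7, which shared a value of 4.97 CPM when rounded and differed by 0.000111 on the log2 scale.

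That gene lay nearest to the border of the rule on its inner side. The nearest genes on the outer side, GB50104 and GB53438, missed the order low in mated queens by 0.01 and 0.02 on the log2 scale, in both cases because a mated queen lay above CO2-treated queen 5. On the side of the level, GB50759 was the graded gene nearest to the minimum, with a mean of 1.33 CPM. Below the minimum, GB51351 and GB51315 held the order low in mated queens at a mean of 0.987 and 0.386 CPM. Mated queens had 0 to 2 reads of either gene, within the 3 counts that a count of 0 allows.

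Where the CO2-treated queens lay between the other groups was measured as a position on the log2 CPM scale, with 1 at the mean of mated queens and 0 at the mean of virgin queens. The rule requires a value between these ends, so only its place within them is described. The median position was 0.45 over the 11 genes, 0.43 over the 8 genes high in mated queens and 0.56 over the 3 genes low in mated queens. Taken 1 by 1, the CO2-treated queens had median positions of 0.47, 0.42, 0.50 and 0.51. The rule also holds each CO2-treated queen between the other groups, so nothing is read from the closeness of these values. For 7 of the 8 genes high in mated queens the CO2-treated mean was nearer to virgin queens, the lowest position being 0.27 for GB46921, and the exception was GB42541 at 0.75. Among the genes low in mated queens, CG15629 and GB54353 lay nearer to mated queens, at 0.66 and 0.56, and GB48721 was at 0.49. With 3 genes low in mated queens this difference between directions was not tested. Scaling by total counts moved the median over the 11 genes to 0.60.

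**Figure D2:**
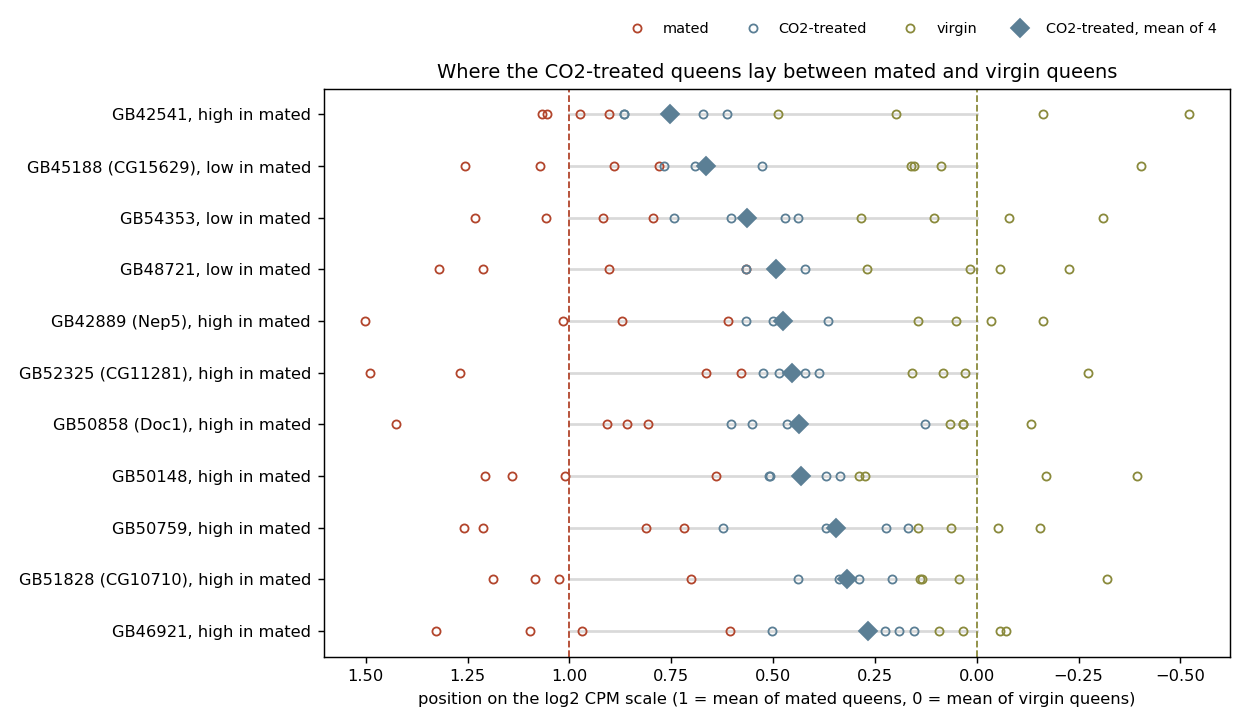
Position of each queen on the log2 CPM scale for the 11 graded genes, with 1 at the mean of the mated queens and 0 at the mean of the virgin queens (mated side on the left). Open circles are queens and diamonds the mean of the 4 CO2-treated queens, which runs from 0.75 for GB42541 at the top to 0.27 for GB46921 at the bottom.

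In edgeR's quasi-likelihood test on all 12 queens, 9 of the 11 genes had an adjusted p under 0.05 for mated over virgin queens, against 1.2% of all 13038 genes tested. The exceptions were GB42541 and GB50148. For mated over CO2-treated queens 2 of the 11 were called, GB46921 and CG10710, against 0.66% of all genes. For CO2-treated over virgin queens none of the 11 was called, against 0.0153% of all genes. That count was also 0 with DESeq2 and with both forms of edgeR's exact test, and 8 of the 11 had an unadjusted p under 0.05 in the quasi-likelihood test, as had 758 of the 13038 genes. Other tools called 8 to 11 of the 11 for mated over virgin queens. Leaving out 1 queen gave 2 to 9 of the 11 for that comparison, with 2 without mated queen 6 or virgin queen 2, and 0 to 2 for mated over CO2-treated queens. Since the rule used these same contrasts, nothing is read from the counts.

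The fitted log2 differences between CO2-treated and virgin queens were 0.34 to 0.94 for the 8 genes high in mated queens, with SEs of 0.18 to 0.41, and -0.89 to -0.61 for the 3 genes low in mated queens, with SEs of 0.21 to 0.25. The fitted differences between mated and virgin queens were 0.74 to 2.25 and -1.31 to -1.11.

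The gap between the nearest queens of neighbouring groups was set against counting error, taken from the reads of those queens. Of the 22 gaps, 3 were larger than 1.96 counting SEs. These were mated queen 1 against CO2-treated queen 5 in CG10710 and in GB46921, and CO2-treated queen 2 against virgin queen 6 in CG15629. For the other 19 gaps the counting interval included 0, so the order of those neighbouring queens was within counting error at this depth. Gaps between mated and CO2-treated queens had a median of 0.11 log2 units, and gaps between CO2-treated and virgin queens a median of 0.12.

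**Figure D3:**
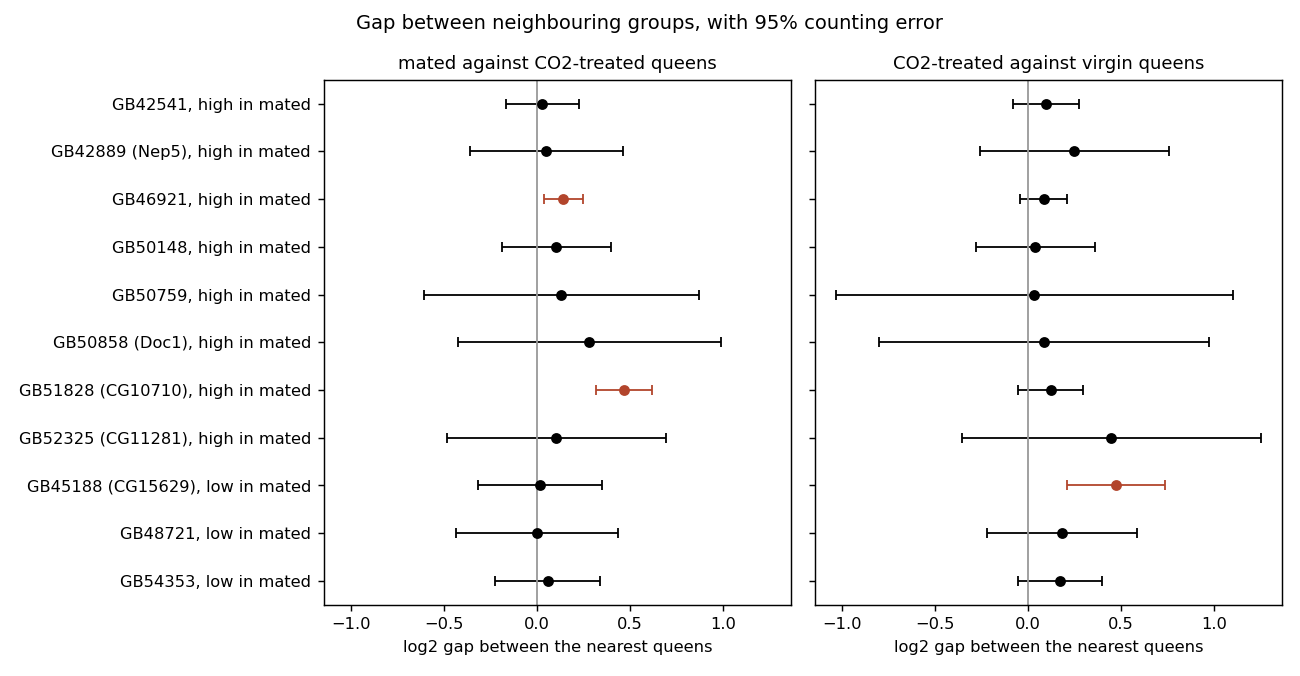
Gap on the log2 scale between the nearest queens of mated and CO2-treated groups (left) and of CO2-treated and virgin groups (right), in the direction of each gene's order. Bars are 1.96 counting SEs to either side, and the 3 gaps whose bar does not reach 0 are in red, 2 on the left and 1 on the right.

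The queens did not contribute evenly to these borders. Mated queen 1 was the mated queen nearest to the CO2-treated queens in 7 of the 11 genes, and its median position was 0.72, against 1.01 to 1.08 in the other mated queens. It also had the smallest share of GB49544 among mated queens, 13.7%, against 23.2 to 42.7%. Virgin queen 6 was the virgin queen nearest to the CO2-treated queens in 6 of the 11 genes, and virgin queen 2 was the farthest from them in 7. CO2-treated queens had the smallest coefficient of variation of the 3 groups in 7 of the 11 graded genes. They had it in 66.5% of all genes considered, so this low spread was not particular to the graded genes.

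Transcripts of cell types other than brain cells also differed between queens. Markers could be matched only among the genes that the study called on these same libraries, so unchanged markers could not enter. The 6 matched muscle markers summed to 949 to 13710 CPM in mated queens, 738 to 7071 CPM in CO2-treated queens and 864 to 3997 CPM in virgin queens. The 2 matched haemocyte markers summed to 843 to 2647 CPM in mated queens, 775 to 3328 CPM in CO2-treated queens and 319 to 1446 CPM in virgin queens. The 2 matched genes of fat body storage protein summed to 184 to 3064 CPM in mated queens, 58.6 to 265 CPM in CO2-treated queens and 43.9 to 70.2 CPM in virgin queens. Both of these genes are named Lsp2, and the other names on the fat body list of 4 were not matched. Their sum can therefore miss other fat body transcripts. Mated queen 1 had the lowest sum among mated queens for each of these 3 lists. The 6 matched photoreceptor markers summed to 53.2 to 213 CPM in mated queens, 56.7 to 128 CPM in CO2-treated queens and 67.5 to 747 CPM in virgin queens. The part of such cells in the graded genes was not tested, and none of the 11 is on a marker list. The 6 graded genes without a name could not have been matched to such a list. Only 1 of 9 neuronal markers, brp, and no glial marker could be matched by name, so the label of brain could not be checked further.

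Besides the 11 graded genes, 96 genes would have been graded but for a single queen, 45 high and 51 low in mated queens. Virgin queen 4 was the queen out of order in 23 of them, mated queen 1 in 17 and virgin queen 6 in 15, while mated queen 7 and virgin queen 2 were so in 2 and 1. In 14 of the 96 the order could be mended by leaving out either of 2 queens.

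**Figure D4:**
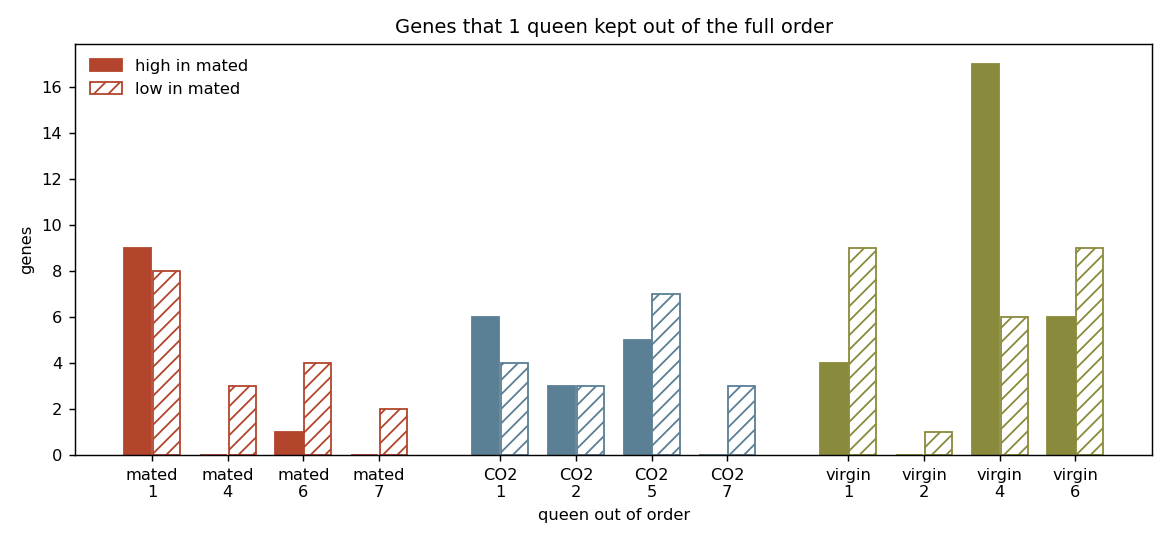
Number of genes that a single queen kept out of the full order, for each of the mated, CO2-treated and virgin queens from left to right (filled bars, order high in mated queens; hatched bars, order low in mated queens). The tallest bar is that of virgin queen 4, with 17 genes of the order high in mated queens.

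None of the 11 graded genes is on any of the 17 lists of pathways to which at least 1 gene could be matched. Matching used ortholog names, the lists hold 93 genes of the table, and the 6 graded genes without a name could not be matched. The list of transcription factors matched no gene, so it could not hold Doc1. The names come from the study's own lists of genes called on the same libraries, so the lists cover only such genes. Of the 93, 5 were kept out of the order by a single queen or by either of 2. InR (GB49662), the insulin receptor, had 42.8, 66.6, 189 and 89.1 CPM in mated queens 1, 4, 6 and 7, against 24.6, 43.1, 44.6 and 31.3 CPM in CO2-treated queens 1, 2, 5 and 7 and 16.8, 7.25, 22.9 and 22.0 CPM in virgin queens 1, 2, 4 and 6. Only mated queen 1 broke the order, by lying within the CO2-treated queens. Dat (GB51044), which acetylates dopamine and related amines in Drosophila, had 107, 120, 120 and 72.1 CPM in mated queens, against 177, 149, 166 and 144 CPM in CO2-treated queens and 289, 368, 140 and 227 CPM in virgin queens, with virgin queen 4 out of order.

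The other 3 were Eip75B, a nuclear receptor of the ecdysone response, the P450 enzyme Cyp304a1 and the chitinase Cht3. Eip75B (GB47224) averaged 365 ± 135 CPM in mated queens, 208 ± 23.9 CPM in CO2-treated queens and 123 ± 64.3 CPM in virgin queens (SD, n = 4 each). Cyp304a1 (GB47885) averaged 8.32 ± 4.98 CPM in mated queens, 1.97 ± 0.88 CPM in CO2-treated queens and 1.64 ± 0.27 CPM in virgin queens. Cht3 (GB43173) had the order low in mated queens, with 25.9 ± 7.69 CPM in mated queens, 48.3 ± 11.5 CPM in CO2-treated queens and 59.2 ± 22.5 CPM in virgin queens. These genes were picked out by their own order, so the values are a description as well.

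The order depended on how the libraries were scaled. With total counts in place of TMM factors none of the 8 genes high in mated queens kept its order, and 87 genes were low in mated queens, CG15629 and GB54353 among them. The log2 differences of the 8 genes, mated minus virgin, stayed above 0 under that scaling at 0.01 to 1.26, and were 0.80 to 2.05 above the shifted median of all genes, against 0.84 to 2.05 with TMM. For the 3 genes low in mated queens the distance from the median of all genes was -1.24 to -1.05 under total counts. With TMM it was -1.21 to -1.02. The median is that of fitted log2 fold changes, whereas the genes' own values are differences of mean log2 CPM. A change of scaling moves all genes by nearly the same amount. These distances could therefore hardly change, and nothing is read from them. With DESeq2's size factors 7 of the 8 and 2 of the 3 genes kept their order, without GB50148 and GB48721.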

How the data were processed

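The authors trimmed reads (Trimmomatic), removed ribosomal sequence (SortMeRna), used TopHat for the alignment to honey bee assembly 4.5 and took gene counts from SAMtools idxstats. They deposited these raw read counts of 15314 genes without normalization. A second deposited table holds the same counts standardized by library and gene and was not used. Counts were scaled by TMM in edgeR 4.0.16 (R 4.3.3), and log2 CPM used a prior count of 2. The quasi-likelihood test was fitted to all 12 queens on the 13038 genes with at least 10 counts summed, with Benjamini-Hochberg adjustment and a threshold of 0.05, and was tested on simulated data. SEs restate the F statistic. All 11 graded genes are named, with the 2 nearest outside and the gene with the largest share of counts. Alternatives were DESeq2 1.42.0, edgeR's exact test, other scalings and filters, and each queen left out. Graded genes and lists were chosen with earlier results of these data known. The queens were separate animals of 1 colony.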

Additional observations from a re-analysis of the deposited data

Results flagged for a closer look

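Among 42 groups of 4 queens (14 named genes in 3 groups), 3 held a queen that stood apart from the others of its group by a gap that, as a part of the group's range on the log2 CPM scale, passed the 95% critical value of Dixon's test, which chance does in about 1 in 20 groups. In Doc1 (GB50858) mated queen 4 stood above the other mated queens (0.836 of the range) and virgin queen 2 below the other virgin queens (0.837). The virgin queens 1, 2, 4 and 6 had only 23, 20, 21 and 17 reads of Doc1, at a coefficient of variation of 9.18%. The flag on virgin queen 2 thus rests on a difference of few reads. In CG15629 (GB45188) virgin queen 2 stood above the other virgin queens (0.87).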

How the results depend on the processing

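The number of genes high in mated queens was 8, and was 0 with total counts and 5 with a mean of at least 5 CPM. The number low in mated queens was 3, and was 87 with total counts and 5 without a minimum mean CPM. Leaving out 1 queen eases the rule by construction, and gave 7 to 25 genes high in mated queens, with 13 without mated queen 1, 14 without CO2-treated queen 1, 13 without CO2-treated queen 5, 25 without virgin queen 4 and 14 without virgin queen 6. It gave 4 to 17 genes low in mated queens, with 17, 9, 12 and 8 without mated queens 1, 4, 6 and 7, with 8, 7, 11 and 7 without CO2-treated queens 1, 2, 5 and 7, and with 12, 4, 9 and 12 without virgin queens 1, 2, 4 and 6.

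Genes called for mated over virgin queens numbered 157 (124 higher), against 490 and 829 with edgeR's exact test (tagwise and common dispersion), 640 with DESeq2 and 4398 (160 higher) with total counts. Genes called for CO2-treated over virgin queens numbered 2, against 17, 150, 20 and 0, and 758 had an unadjusted p under 0.05. For mated over CO2-treated queens they numbered 86 (68 higher), against 287, 627 and 421, and 97 (24 higher) with total counts. The cause of these differences was not tested. Leaving out 1 queen gave 28 to 279 calls for mated over virgin queens, with 260, 90, 37 and 52 without mated queens 1, 4, 6 and 7 and 64, 28, 77 and 279 without virgin queens 1, 2, 4 and 6. It gave 1 to 2 calls for CO2-treated over virgin queens, with 2 without mated queen 4, CO2-treated queen 5 or virgin queen 2. It gave 18 to 179 calls for mated over CO2-treated queens, with 179, 32, 24 and 18 without mated queens 1, 4, 6 and 7 and 22, 28, 40 and 21 without CO2-treated queens 1, 2, 5 and 7.

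The median position of CO2-treated queens, 0.45, was 0.60 with total counts and 0.41 to 0.50 when 1 queen was left out. Over the 11 genes, no log2 difference between mated and virgin queens changed sign with DESeq2's size factors or with total counts. Nor did any with TMM factors computed without GB49544 (an alternative chosen after seeing the data) or with any 1 queen left out. The rule sets every mated queen apart from every virgin queen. Leaving out 1 queen or a similar scaling could therefore hardly change a sign, and nothing is read from the unchanged signs.

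With the queen number as a block, 177, 0 and 10 genes were called for the 3 comparisons, and 3, 0 and 0 of the graded genes. The numbers name different animals, so the block is no pairing of samples from 1 queen. Same-numbered queens correlated at -0.33 to 0.60 over 7 pairs (mean 0.20). Queens of unlike number correlated at -0.72 to 0.44 over 41 pairs (mean -0.03). The titles of mated queen 1, virgin queen 1 and CO2-treated queens 1 and 2 end in br, which the labels do not explain. Among these, CO2-treated queen 1 correlated at 0.60 with virgin queen 1 and at 0.46 with mated queen 1. Mated and virgin queens 1 correlated at 0.09, and CO2-treated queen 2 at -0.39 and -0.32 with them. Whether queens of the same number or ending shared more than their label is not stated and was not tested.

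Depth limits the scarce genes most, since GB50759, Doc1 and CG11281 rest on 12 to 109 reads per library.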
